A study of Homo sapiens with 9 samples.

Results

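MBNL1 and MBNL2 are muscleblind‐like proteins, zinc‐finger RNA‐binding factors that control the choice of alternative exons, and their own transcripts are alternatively spliced. The QKI‐5 binding peaks on those transcripts are described here. A peak was taken when it lay on the strand of the gene and its centre fell between the annotated ends of MBNL1 (ENSG00000152601, hg19 chr3:151961617-152183569, plus strand) or MBNL2 (ENSG00000139793, hg19 chr13:97873688-98046374, plus strand). The rule found 54 of the 24037 peaks of the deposited list, 46 in MBNL1 and 8 in MBNL2.

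The peaks come from QKI‐5 HITS‐CLIP in mesHMLE, a mesenchymal line made from the immortalised human mammary epithelial line HMLE by prolonged TGF‐β1 (2.5 ng/ml for at least 14 days) and then kept without added TGF‐β1. Living cells were irradiated with 600 mJ/cm2 of UV, which joins proteins to the RNA they touch, and the RNA bound to QKI‐5 was recovered with an antibody to that isoform, cut from a gel and sequenced. There were 7 immunoprecipitation libraries, 3 cut at the size of a QKI monomer and 4 at the size of a dimer, the latter including 1 made with the reverse transcriptase SuperScriptIV in place of AffinityScript, and 2 size‐matched input libraries from the same kind of lysate served as the control. The labels call them technical replicates, the authors pooled them before peaks were called, and all came from 1 cell line in 1 state, so that no value below has a replicate, an error between replicates or a test of a condition.

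QKI binds RNA through a STAR domain, and QKI‐5 is its nuclear isoform. Its best known sequence, in the DNA letters used here, is ACTAAC. QKI acts on splicing from within an alternative exon or from the introns beside it. MBNL proteins carry pairs of zinc fingers, the first of them near the start of the protein, and a series of short alternative exons encodes part of the rest. In both genes a 54‐nt exon is linked to the nuclear location of the protein, a 36‐nt exon lies further on, and a 95‐nt exon changes the reading frame and so the end of the protein. An alternative exon is here an internal exon of a protein‐coding GENCODE transcript that lies wholly inside an intron of another one. There were 10 in MBNL1, which has 19 protein‐coding transcripts, and 6 in MBNL2, which has 10.

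The sequences that the main findings turn on are those of the 3 peaks that ran onto one of these short coding exons, shown with the exon bases in capitals and the intron in lower case, so that the change of case is the splice site. The first peak crossed the 3′ splice site of the 54‐nt exon of MBNL1, the second covered the whole 36‐nt exon of MBNL2, and the third crossed the 3′ splice site of the 95‐nt exon of MBNL2. All are hg19, plus strand, 5′ to 3′.
MBNL1 54‐nt exon, chr3:152164381-152164532: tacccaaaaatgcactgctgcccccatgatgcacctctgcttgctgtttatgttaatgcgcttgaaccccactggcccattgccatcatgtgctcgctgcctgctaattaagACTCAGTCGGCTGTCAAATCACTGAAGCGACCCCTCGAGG
MBNL2 36‐nt exon, chr13:98017362-98017441: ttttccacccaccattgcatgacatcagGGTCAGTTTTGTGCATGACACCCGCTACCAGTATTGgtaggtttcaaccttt
MBNL2 95‐nt exon, chr13:98018672-98018753: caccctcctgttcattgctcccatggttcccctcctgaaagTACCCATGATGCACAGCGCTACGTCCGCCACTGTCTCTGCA

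The second set shows the 4 peaks of the 2 genes that held ACTAAC, with the motif in capitals. All 4 lay in introns, and only the last of them was close to an alternative exon.
MBNL1 intron 1, chr3:152001695-152001744: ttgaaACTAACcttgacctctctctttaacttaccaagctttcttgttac
MBNL1 intron 2, chr3:152026757-152026879: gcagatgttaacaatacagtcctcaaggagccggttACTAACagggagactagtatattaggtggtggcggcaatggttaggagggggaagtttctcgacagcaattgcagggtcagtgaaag
MBNL2 intron 2, chr13:97977368-97977419: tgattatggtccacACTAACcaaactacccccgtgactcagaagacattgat
MBNL2 intron 7, chr13:98017165-98017360: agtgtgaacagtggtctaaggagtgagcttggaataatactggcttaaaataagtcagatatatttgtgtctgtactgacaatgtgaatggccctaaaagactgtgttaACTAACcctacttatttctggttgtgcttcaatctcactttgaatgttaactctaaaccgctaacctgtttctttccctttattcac

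MBNL1 carried many more QKI‐5 peaks than MBNL2. Its 46 peaks gave it rank 32 among 20163 protein‐coding genes, of which 23.6% had at least 1 peak with a median of 2 among those that had any. MBNL2, with 8, had rank 649. MBNL1 is a 222‐kb gene and MBNL2 a 173‐kb gene, so that the number per 10 kb was 2.07 in MBNL1 and 0.463 in MBNL2, beside a median of 0.375 over the 4750 genes with a peak. The amount of MBNL1 and MBNL2 RNA in the cells was not analysed here, and a difference in peak number between genes cannot be told apart from a difference in RNA amount. No peak lay on the opposite strand of either span, where the antisense RNA MBNL1‐AS1 and other non‐coding genes are annotated.

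The peaks of both genes were of ordinary to low height. The height is the pile‐up of pooled reads that the authors wrote for each peak, with no unit of its own and no scaling to the abundance of the transcript. Over MBNL1 it ran from 8 to 48 with a median of 21, and over MBNL2 from 11 to 38 with a median of 19, where the 24019 peaks on nuclear chromosomes had a median of 23 and quartiles of 18 and 33. Of the MBNL1 peaks 18 of 46 (39.1%), and of the MBNL2 peaks 2 of 8 (25%), stood at or above the median of the list, beside 53.4% of all nuclear peaks. The tallest MBNL1 peaks, at 48, were higher than 87% of the list, and the tallest MBNL2 peak, at 38, was higher than 80.3% of it. Widths were like those of the list, with a median of 59 nt in MBNL1 and 57 nt in MBNL2 beside 61 nt.

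**Figure D1:**
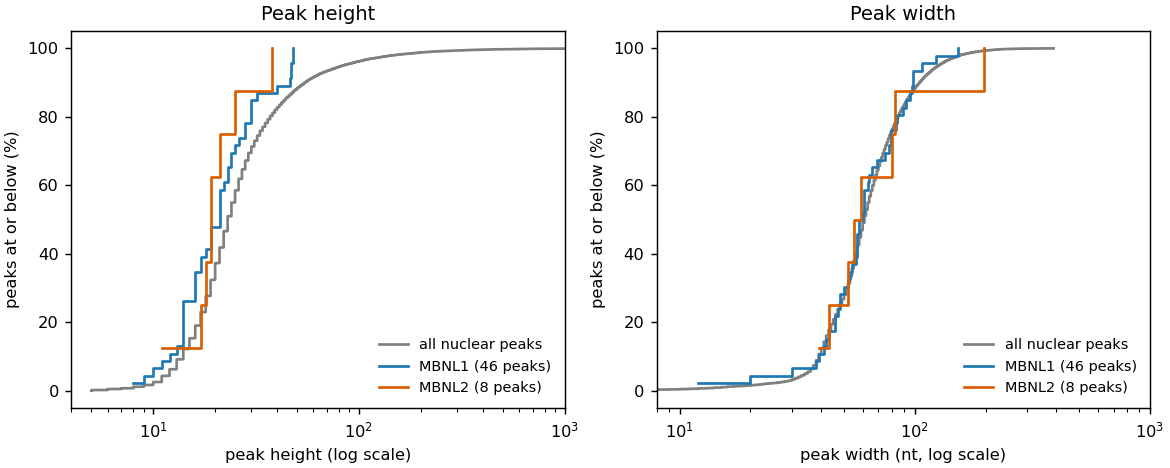
Cumulative share of peaks (%) by peak height (left, log scale, drawn to 1000) and by peak width in nt (right, log scale) for all nuclear peaks (grey), the 46 MBNL1 peaks (blue) and the 8 MBNL2 peaks (orange). The height curves of both genes reach 100% at 48 and 38, where the list runs on, while the width curves follow that of the list.

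The MBNL1 peaks were spread from the first intron to the end of the coding part. When peaks less than 2000 nt apart were put together, the 46 peaks made 14 groups, 6 of them with a single peak. The largest held 14 peaks within 5.86 kb (chr3:152034153-152040016), 72.5 to 78.4 kb from the gene start, with heights from 8 to 48. The next held 7 peaks within 3.68 kb (chr3:152051723-152055401), with heights from 9 to 46, and lay around the 120‐nt alternative exon. Another group of 6 peaks within 1.18 kb (chr3:152164161-152165342), with heights from 14 to 30, lay around the 54‐nt exon. Another peak lay within 100 nt for 25 of 46 MBNL1 peaks (54.3%) and 4 of 8 MBNL2 peaks (50%). Both are near the 45.9% of all nuclear peaks. The grouping at 2000 nt was not made over the list, so the groups cannot be read as particular to MBNL1.

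The 8 peaks of MBNL2 made 4 groups. A pair of single peaks, both of height 19, lay in intron 2, and a pair of heights 11 and 18 lay in intron 7, past the constant 154‐nt exon. The remaining 4, of heights 25, 38, 17 and 21, lay within 2.8 kb (chr13:98017165-98019964) around the 36‐nt and the 95‐nt exon. That stretch held the 3 tallest peaks of the gene.

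**Figure D2:**
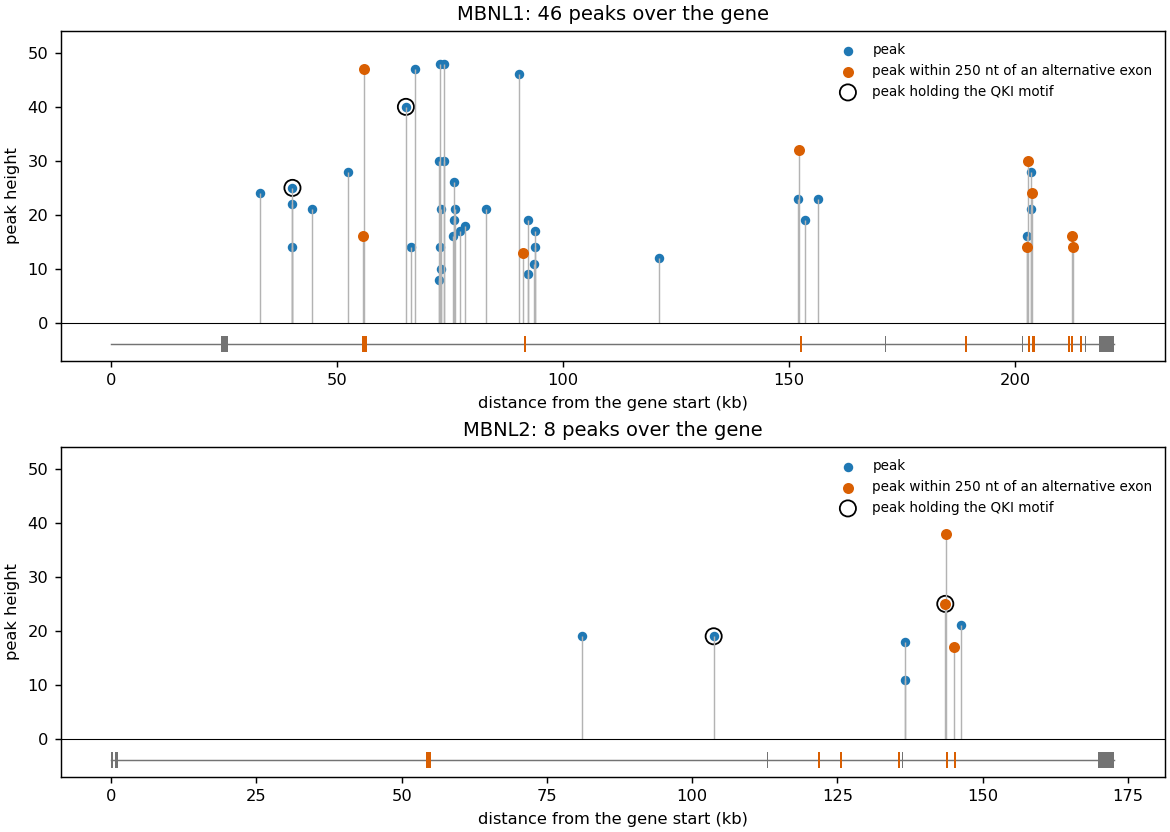
Peak height against distance from the gene start (kb) for MBNL1 (top) and MBNL2 (bottom). Points are peaks, orange where within 250 nt of an alternative exon and ringed where they hold ACTAAC, and the boxes under the axis are exons of protein‐coding transcripts (alternative ones in orange, widths enlarged for visibility); the tallest MBNL1 peaks crowd 55.6 to 93.8 kb from the start, and 4 of the 8 MBNL2 peaks lie between 143 and 146 kb.

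Most of the peaks were intronic by their centre. The centre of 44 of 46 MBNL1 peaks (95.7%, 95% Wilson interval 85.5 to 98.8%) and of 7 of 8 MBNL2 peaks (87.5%, 52.9 to 97.8%) lay in no exon of a protein‐coding transcript, beside 88.5% of all peaks in protein‐coding genes, a value inside both intervals. These intervals cover counting error only. The exceptions in MBNL1 were a pair of peaks in the 963‐nt exon, and in MBNL2 the peak over the 36‐nt exon. The MBNL2 peak at the 95‐nt exon was counted as intronic by its centre, though its summit was base 13 of the exon. Placed by summit, the intronic share was 75% in MBNL2 and stayed at 95.7% in MBNL1. No peak touched the last exon of either reference (MANE) transcript, which holds the 3′UTR. The nearest lay 5841 nt away in MBNL1 and 23611 nt away in MBNL2.

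Among introns of the reference transcript MBNL1‐204, intron 2 held 30 of 46 peaks (65.2%) and made up 51.6% of the gene. At 115 kb this intron separates the 963‐nt exon from the next constant exon, and its density was 2.62 peaks per 10 kb. Intron 5, the short intron that contains the 54‐nt exon, held 6 peaks (13%) in 0.937% of the gene, or 28.8 per 10 kb. Intron 1 had 6 peaks and intron 8, downstream of the 95‐nt exon, had 2. Introns 3, 4, 6, 7 and 9 had none. In MBNL2 intron 7, upstream of the 36‐nt exon, held 3 of 8 peaks (37.5%) in 4.34% of the gene, while the 53.1‐kb intron 1 held none.

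**Figure D3:**
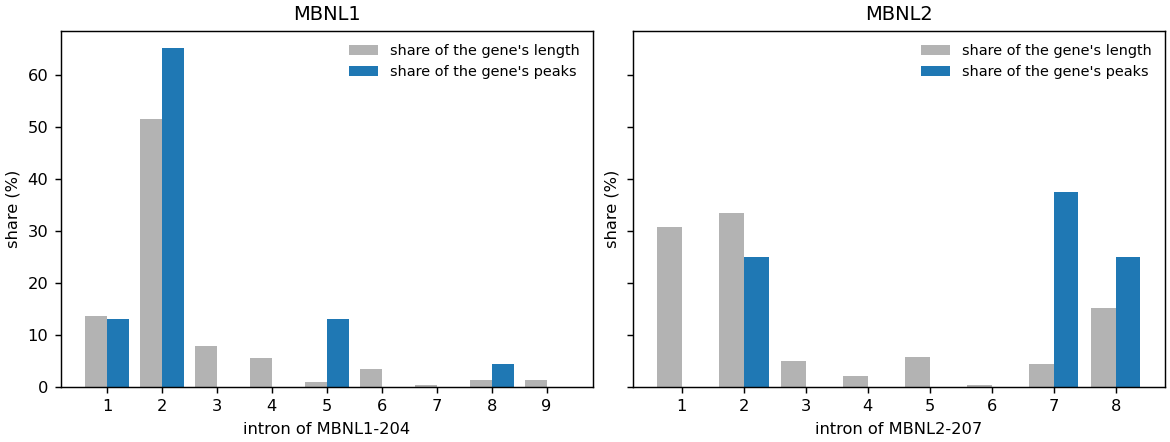
Share of the gene's length (grey, %) and share of its peaks (blue, %) in each intron of the reference transcripts MBNL1‐204 (left) and MBNL2‐207 (right). Bars start at 0, and MBNL1 intron 5 (0.937% of the length, 13% of the peaks) and MBNL2 intron 7 (4.34% and 37.5%) show the widest gaps between the bars among the short introns.

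Peaks lay near alternative exons more often in these genes than over the list. Within 250 nt of an alternative exon were 9 of 46 MBNL1 peaks (19.6%, Wilson interval 10.7 to 33.2%) and 3 of 8 MBNL2 peaks (37.5%, 13.7 to 69.4%), beside 6.12% of the 20913 peaks in protein‐coding genes. The intervals treat each peak as independent and are no test against that share. Both genes also have more alternative exons, 10 and 6, than the median of 1 over genes with a peak. The stretches within 250 nt of one made up 2.82% of MBNL1 and 2.56% of MBNL2, beside a median of 1.07% over genes with a peak. That median is taken over genes and the 6.12% over peaks, so the excess is not sized by them. Neighbouring peaks are not independent draws, and 2 of the 3 MBNL2 peaks lay 1 nt apart. The MBNL1 peaks nearest to the limit lay 203 nt from an exon on the inside and 271 and 272 nt on the outside.

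The 54‐nt exon (chr3:152164493-152164546) had 2 MBNL1 peaks within 250 nt, as had the 963‐nt and the 95‐nt exon. It is present in 5 and skipped in 11 protein‐coding transcripts. The peak across its 3′ splice site had a height of 30, and at 152 nt it was the widest of the gene. It covered the first 40 bases of the exon and 112 nt of the upstream intron, and its summit lay in the intron, 52 nt before the exon. Further upstream lay a peak of height 14 at 198 nt (chr3:152164256-152164294) and one of height 16 at 271 nt (chr3:152164161-152164221). Downstream, in the same intron, peaks of height 21 (chr3:152165026-152165088), 28 (chr3:152165091-152165136) and 24 (chr3:152165277-152165342) ran towards the 154‐nt exon, the last ending 66 nt before it. A 49‐nt exon of 1 transcript is the end of that 154‐nt exon and shares the peak. The 3 downstream peaks lie closer to the 154‐nt exon than to the 54‐nt exon. None of the 6 peaks held ACTAAC.

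The 54‐nt exon of MBNL2 (chr13:98009050-98009103), present in 3 and skipped in 5 transcripts, had no peak close to it. The nearest, of height 11, lay 1176 nt downstream. The exons are alike, with 45 of 54 bases the same (83.3%), and so is the intron before them: over the 100 nt upstream, 83 of 93 aligned bases were the same, the highest share among the 6 flanks compared, the others having between 50 of 89 and 68 of 85. The MBNL1 peak and the MBNL2 stretch at the same place relative to the exon had 127 of 145 aligned bases in common. For comparison with the MBNL1 peak printed first, that stretch of MBNL2, which had no peak, is given with exon bases in capitals.
MBNL2 54‐nt exon, no peak, chr13:98008938-98009089: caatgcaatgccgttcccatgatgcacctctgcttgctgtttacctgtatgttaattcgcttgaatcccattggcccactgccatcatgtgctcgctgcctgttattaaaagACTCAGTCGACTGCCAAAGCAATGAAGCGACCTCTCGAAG

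At the 36‐nt exon it was MBNL2 that had the peaks. The exon of MBNL2 (chr13:98017390-98017425), present in 4 and skipped in 4 transcripts, lay wholly within the tallest peak of the gene, of height 38 and 80 nt wide, whose summit was base 23 of the exon. A peak of height 25 and 196 nt, the widest of the gene, ended 29 nt before the exon and only 1 nt before the taller peak, so that the pair covered the upstream intron and the exon almost without a break. This wide peak held ACTAAC, which began 26 nt before its summit, and the last base of the motif lay 111 nt before the first base of the exon. It also held TAAY (TAA followed by C or T), the core that QKI sites share, at 5 positions, of which 1 is inside the ACTAAC.

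The 36‐nt exon of MBNL1 (chr3:152173331-152173366), present in 8 and skipped in 8 transcripts, had no peak within 250 nt. The nearest, of height 16, lay 814 nt downstream, past the 95‐nt exon. The exons had 31 of 36 bases in common (86.1%). MBNL1 has an ACTAAC 113 nt downstream of this exon (chr3:152173480-152173485), the only one within 250 nt of any of its alternative exons, and no peak lay closer to it than 695 nt. The bare MBNL1 exon with its flanks, at the place of the tallest MBNL2 peak, read as follows, exon in capitals.
MBNL1 36‐nt exon, no peak, chr3:152173303-152173382: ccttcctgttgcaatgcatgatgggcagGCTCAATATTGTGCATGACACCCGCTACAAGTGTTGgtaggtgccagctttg

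Both genes had peaks at the 95‐nt exon, on different sides of it. In MBNL1 (chr3:152174056-152174150, present in 11 and skipped in 5 transcripts) a peak of height 16 began 30 nt downstream of the exon (chr3:152174181-152174278) and one of height 14 lay 130 nt downstream (chr3:152174281-152174332), with nothing on the exon or within 250 nt upstream. In MBNL2 (chr13:98018713-98018807, present in 3 and skipped in 5) the peak of height 17 lay across the 3′ splice site, covering 41 nt of intron and the first 41 bases of the exon, with its summit at base 13, and the next peak downstream, of height 21, was 1098 nt away. The exons had 81 of 95 bases in common (85.3%). The length of this exon is not a multiple of 3. In the annotation the last coding base moved from 152177088 in 5 MBNL1 transcripts without it to 152177113 in the 11 with it, and from 98043700 in 5 MBNL2 transcripts without it to 98043587 in the 3 with it.

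**Figure D4:**
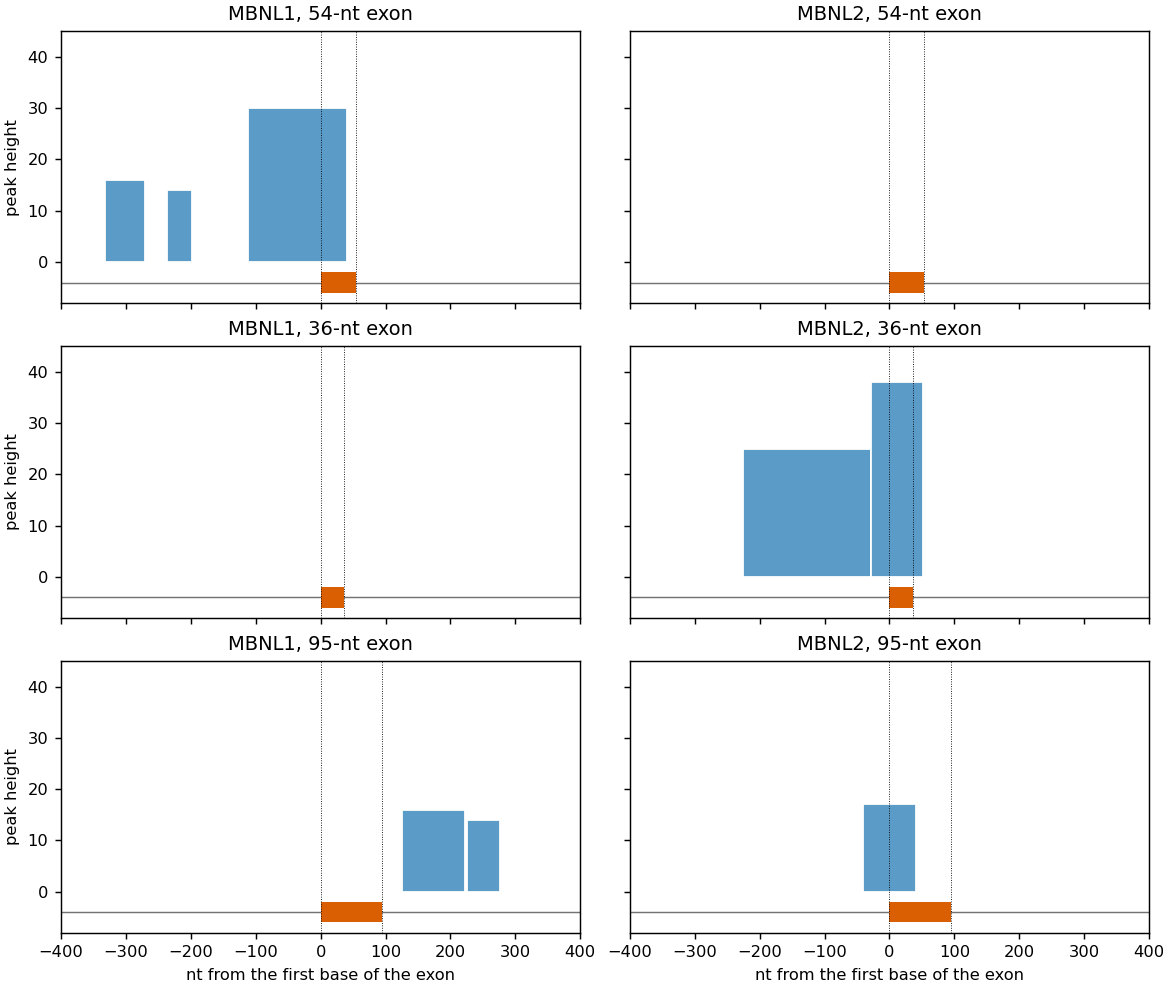
Peaks (blue boxes, width to scale, top at the peak height) around the 54‐nt, 36‐nt and 95‐nt exons (orange) of MBNL1 (left) and MBNL2 (right), by nt from the first base of the exon, 5′ to 3′ from left to right. Peaks sit at the 54‐nt exon in MBNL1 alone of the pair, at the 36‐nt exon in MBNL2 alone, and at the 95‐nt exon downstream in MBNL1 and across the 3′ splice site in MBNL2.

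The other alternative exons with a peak nearby were in MBNL1. The 963‐nt exon (chr3:152017194-152018156) holds the end of the 5′UTR and the start of the coding sequence that gives the first zinc fingers. It had 2 peaks, of heights 16 (chr3:152017223-152017300) and 47 (chr3:152017471-152017539), and neither covered an annotated coding base. The taller held ACTAAT, shown in capitals within 30 nt (chr3:152017497-152017526): tgtctatgccaaACTAATcaataccgattg. A peak of height 13 ended 183 nt upstream of the 120‐nt exon, which 2 transcripts include and 16 skip, and a peak of height 32 ended 203 nt upstream of the 58‐nt exon, which 1 includes and 17 skip. Both are partly coding exons inside the 115‐kb intron 2. No peak lay within 250 nt of the 204‐nt or 64‐nt exon of MBNL1, or of the 778‐nt, 201‐nt and 264‐nt exons of MBNL2, the nearest being 1586 nt away at the 64‐nt exon and 10958 nt or more at the others. The constant exons of the reference transcripts had no peak within 250 nt in either gene, the nearest being 390 nt downstream of the 154‐nt exon of MBNL2.

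ACTAAC, searched on the sense strand, was found in 2 of 46 MBNL1 peaks (4.35%, Wilson interval 1.2 to 14.5%) and in 2 of 8 MBNL2 peaks (25%, 7.15 to 59.1%), beside 10.1% of all nuclear peaks, which is inside both intervals. With C or T as the last letter the count was 6 in MBNL1 (13%) and 2 in MBNL2, beside 13.7%. The core TAAY stood in 20 of 46 MBNL1 peaks (43.5%) and 2 of 8 MBNL2 peaks (25%), beside 37.5% of the list. In windows of each peak's length centred 500 nt to the 5′ side ACTAAC was found in 1 of 46 for MBNL1 and 0 of 8 for MBNL2. To the 3′ side it was found in 0 of 46 and 0 of 8. A count of 0 allows a share of up to about 3 divided by the number of windows, or 6.52% for 46 and 37.5% for 8. That is a rough limit, not a Wilson interval, and it is least exact for the 8 windows. Over the list such windows held ACTAAC in 1.56% and 1.83%.

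In the motif peaks printed above, the heights were 25 and 40 in MBNL1 and 19 and 25 in MBNL2. The motif began 10, 32, 9 and 26 nt before the summit, in the order in which they are shown. Most copies of the motif in the genes had no peak. The same share over other genes is not given here, so these counts cannot be read as particular to MBNL1 and MBNL2. MBNL1 has 31 ACTAAC on its sense strand over the whole span and 2 were in a peak, and MBNL2 has 22, of which 2 were in a peak. The density of the letters was alike, 1.4 per 10 kb in MBNL1 and 1.27 in MBNL2.

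The 4 tallest MBNL1 peaks did not hold ACTAAC. The 4 highest had heights of 48, 48, 47 and 47, and the only one of them in an exon was that of 47 in the 963‐nt exon (chr3:152017471-152017539). The others lay in intron 2, among them the peak of 48 at chr3:152034322-152034405. The ACTAAC peak of height 40 was among the 6 MBNL1 peaks at or above the upper quartile of the list. With the limit at the list median, the share with ACTAAC was 11.1% of 18 peaks in MBNL1 and 50% of 2 peaks in MBNL2. Without that limit it was 4.35% and 25%. These shares rest on very few peaks. The share over the list at the same limit is not given here, so the rise with height cannot be read as particular to these genes.

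Set beside 49 listed regulators of splicing, MBNL1 had the highest number of peaks but not the highest number per length. The list is a chosen one and is not complete. Genes for RNA‐binding proteins outside it include MATR3 (44 peaks, 7.6 per 10 kb) and PCBP2 (40 peaks, 13.8 per 10 kb), so the order below holds within the list only. In the list of 49 genes for such factors, 34 (69.4%) had at least 1 peak, with a median of 5 among those, beside 23.6% of all protein‐coding genes. The latter share counts every gene, expressed or not, and the amount of RNA was not analysed. None of the 49 exceeded the 46 peaks of MBNL1, and 10 exceeded the 8 of MBNL2. Per 10 kb, 18 of the 34 with a peak exceeded the 2.07 of MBNL1 and 30 exceeded the 0.463 of MBNL2. By number of peaks, the highest of the 49 were HNRNPA2B1 (25 peaks in 30.4 kb, 8.23 per 10 kb, tallest 112), which encodes a nuclear RNA‐binding protein of the hnRNP class, CELF1 (24 peaks in 99.6 kb, 2.41 per 10 kb, tallest 329), whose protein often opposes MBNL1 on the same exons, and SF1 (19 peaks in 14.2 kb, 13.4 per 10 kb, tallest 310), whose protein recognises the branch point and reads letters close to those of QKI. Each of these had fewer peaks than MBNL1 but more per 10 kb and a taller highest peak. MBNL3, the third muscleblind gene (chrX:131503348-131623996, minus strand), had no peak in its 121 kb. QKI itself had 15.

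**Figure D5:**
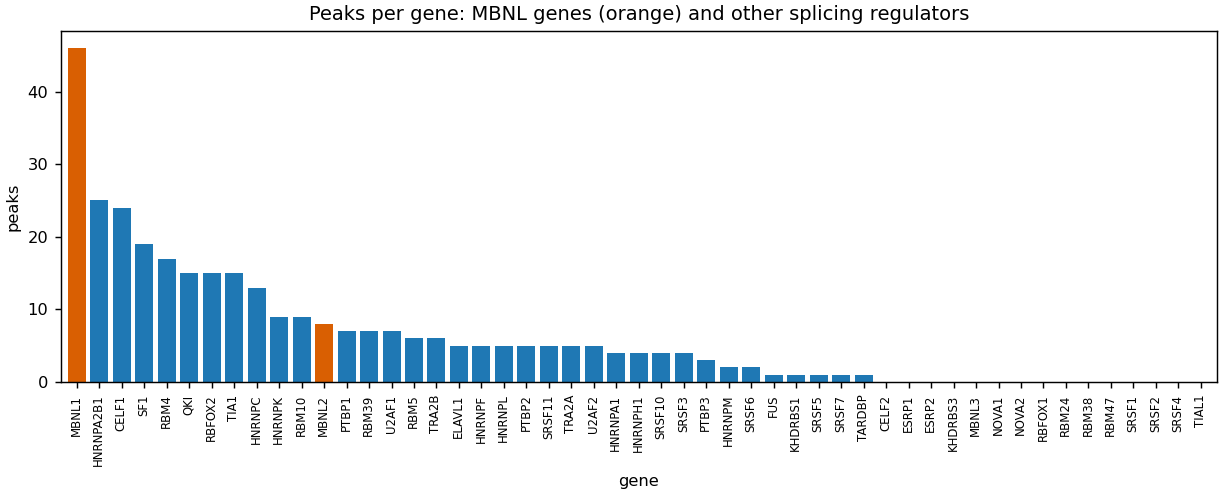
Number of peaks in MBNL1, MBNL2 and each of the 49 listed splicing regulators, in falling order and not scaled to gene length, with MBNL1 and MBNL2 in orange. Among the genes drawn MBNL1 stands first with 46, HNRNPA2B1 second with 25, MBNL2 has 8, and MBNL3 is among the genes at 0. Genes outside the list, some with more than 25 peaks, are not drawn.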

How the data were processed

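QKI‐5 HITS‐CLIP libraries from mesHMLE were processed by the authors, who trimmed reads (cutadapt 1.3), mapped them to hg19 (TopHat2 2.0.10), collapsed duplicates by molecular barcode, removed poorly mapped reads (SAMtools), pooled libraries and called peaks per strand against size‐matched input (MACS2 2.1.1.20160309). The deposited list gives for each peak its start, end and summit and a height, a pile‐up signal that the authors wrote in whole numbers without scaling. Pooling leaves no depth per library and no replicate, so no test was made.

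Peaks were placed by their centre in GENCODE release 44 genes lifted to hg19. Distances are the nt between a peak and an exon. Motifs were searched on the sense strand of the GRCh37 genome. Flanks of 100 nt were aligned globally with free end gaps (Biopython 1.88). Python 3.11.15 was used, and functions were tested on simulated data. Peaks given singly were those within 250 nt of an alternative exon, those with ACTAAC and the 3 tallest of each gene with ties (not all positions are reported here), with neighbours in the same group added after their values were seen. The genes and lists were chosen with earlier results of these data known.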

Additional observations from a re-analysis of the deposited data

How the results depend on the processing

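No paired analysis was possible because the libraries were pooled into 1 list, and for the same reason no library could be left out. Placing peaks by summit or by an overlap of 1 nt left 46 MBNL1 and 8 MBNL2 peaks, and merging those within 20 nt gave 35 and 7. Raising the height limit to the median of the list kept 18 peaks in MBNL1 and 2 in MBNL2, and raising it to the upper quartile kept 6 and 1. In MBNL1, 5 peaks lay within 100 nt of an alternative exon, 13 within 500 nt and 15 within 1000 nt, where the count in MBNL2 was 3 at 100, 500 and 1000 nt. With the height limit at the median, 4 MBNL1 peaks and 2 MBNL2 peaks lay within 250 nt. The share of all peaks in protein‐coding genes at these settings is not given here. The motif share in MBNL1 was 15.2% for ACTAAN and 43.5% for TAAY, the latter chosen after seeing the data, and 0% in the windows to the 3′ side. In MBNL2 it was 0% in the windows to either side. Fewer peaks, looser letters or a wider distance change these counts by construction. The intronic share of MBNL2 by summit was 75%. Depth per library is unknown, so the absence of a peak at an exon, as at the 54‐nt exon of MBNL2, says only that none passed the caller's cutoffs.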
